A study of Mus musculus with 6 samples.

Results

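Class 3 semaphorins are secreted guidance cues, first known for repelling growing axons and later found to act on endothelial, immune and tumor cells. Most of them bind neuropilin-1 or neuropilin-2 on the cell surface, which have short cytoplasmic tails and signal through plexins of the A class. Sema3e is known to bind plexin-D1 directly, without a neuropilin. In the brain, astrocytes and glioma cells both make these ligands and carry their receptors. The 10 genes described here are the 7 ligands, written in the files as SEMA3A, SEMA3B, SEMA3C, SEMA3D, SEMA3E, SEMA3F and SEMA3G, and the receptors NRP1, NRP2 and PLXND1. They were found by symbol, on 1 row each, among the 23282 gene rows of every table. The family was chosen from earlier results of the same comparison, in which Sema3e stood among the strongest rises, so the difference between the groups is given for these 10 genes as a description and without p-values.

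The cells of both groups were labelled as Ink4a-/- mouse astrocytes, a line named for the loss of the tumor suppressor locus Ink4a/Arf. Cdkn2a, the gene of this locus, had 0, 1 and 5 reads in the control and 3, 3 and 0 reads in the JAG1-overexpressing libraries, so that control replicate 3 alone lay above 3 reads. The control cells had received the empty vector pcDNA3.1-puro and the JAG1-overexpressing cells had received pcDNA3.1-JAG1-puro, and RNA of 3 libraries per group was read from the 3' end of polyadenylated transcripts. The labels give the control libraries the genotype WT next to the Ink4a-/- cell line. The sources used here name neither the promoter that drives JAG1 in the vector, nor the time after transfection, nor whether the cells were 1 clone or the libraries came from separate cultures, so that the spread between libraries may be technical. The control libraries held 20489062, 18889751 and 18952552 reads on genes and the JAG1-overexpressing libraries 20071276, 14341634 and 16442278. Levels are given as CPM, read counts scaled to library size after TMM normalization. Since 3' libraries yield about 1 read position per transcript whatever its length, CPM was compared between genes without a correction for length. A count of 3 reads, taken as the limit of detection, equals between 0.148 and 0.206 CPM in these libraries and covers counting error only.

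Jag1 itself had 8.99, 10.8 and 11.2 CPM in the control libraries and 15.2, 13.6 and 13.8 CPM in the JAG1-overexpressing libraries, 1.38-fold higher (log2 fold change 0.46, standard error 0.11; adjusted p = 0.00446, edgeR). Reads of the vector and of the cellular gene cannot be told apart in these counts, and the species of the JAG1 insert is not given in the sources used here. Of 10 markers of astrocytes, 6 had more than 3 reads in a library, led by Gja1 when all libraries are added up, with a mean of 151 CPM in control and 96.7 CPM in JAG1-overexpressing cells. Sox9 had the highest control mean, 181 CPM, against 18.0 CPM. The defining astrocyte genes Gfap, Aqp4, Slc1a3 and Slc1a2 had at most 3 reads in every library. The name astrocyte is therefore that of the labels.

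The class 3 semaphorins changed places between the groups. Sema3b, Sema3f and Sema3a made up nearly all class 3 semaphorin reads of the control cells, whereas Sema3e and Sema3c made up most of them in JAG1-overexpressing cells. Sema3d and Sema3g were at or under the limit of detection throughout. Among the receptors, Nrp1 and Nrp2 were lower in JAG1-overexpressing cells, and Plxnd1 had about the same level in both groups. Enough reads for the test were present for 8 of the 10 genes, and 7 of these passed an adjusted p of 0.05, with 2 higher and 5 lower. Over the whole table of 11712 tested genes, 55.1% passed, 27.4% as higher and 27.7% as lower, and as the comparison had chosen the family, nothing is read from the members' count. The libraries of the groups did not overlap for the same 7 genes, with 2 above and 5 below, whereas 62.0% of all tested genes had no overlap, 31.1% with JAG1-overexpressing libraries above and 30.9% below. Sema3e passed the filter on low counts through the JAG1-overexpressing libraries alone.

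**Figure D1:**
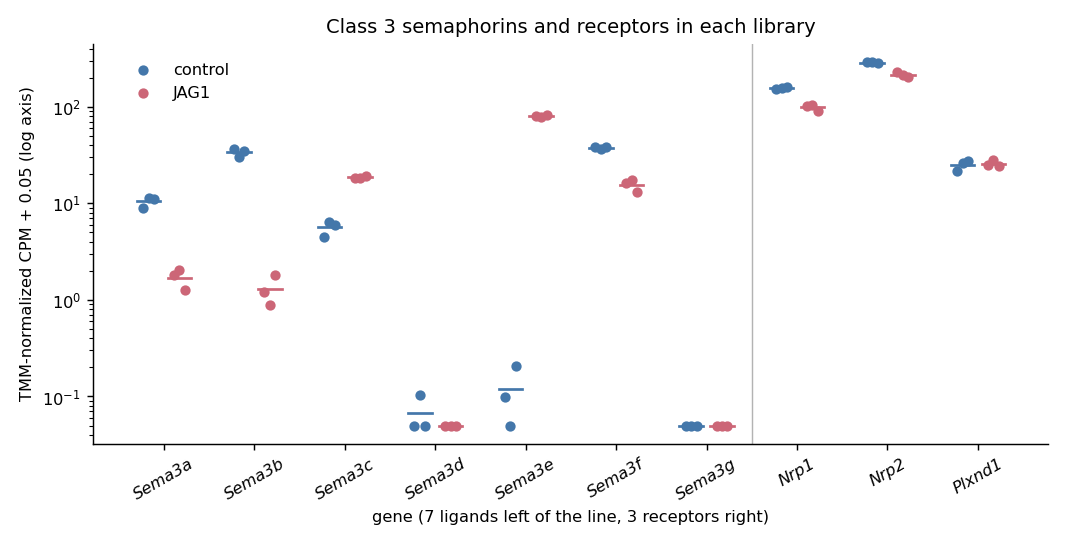
TMM-normalized CPM, with 0.05 added so that 0 can be drawn on the log axis, of the 7 ligands and 3 receptors in each of the 3 control (blue) and 3 JAG1-overexpressing (red) libraries; short lines are group means. Sema3e is near 0 in control and close to 80.0 CPM in JAG1-overexpressing libraries, Sema3a and Sema3b drop to at most 1.995 CPM, and the groups overlap for Plxnd1, Sema3d and Sema3g.

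Sema3e, the ligand of plexin-D1, had 1, 0 and 3 reads in the control libraries and 1600, 1145 and 1339 reads in the JAG1-overexpressing libraries. The latter correspond to 79.7, 78.8 and 81.3 CPM. All control libraries were thus at or under the limit of detection and the JAG1-overexpressing libraries lay close together. Taking 3 reads in each control library as the floor, Sema3e was at least 515-fold higher. Sema3e lies on chromosome 5, at chr5:14025276-14256689 of GRCm38, the build named in the submitters' processing notes.

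Sema3c, which binds both neuropilins and is known for its part in the development of the heart's outflow tract, had 4.39, 6.39 and 5.96 CPM in control and 18.1, 18.3 and 19.0 CPM in JAG1-overexpressing libraries. The groups were apart, and the fold was 3.31 (log2 fold change 1.73, standard error 0.13). Unlike Sema3e, it was above the limit of detection in every control library. It lies at chr5:17574816-17730268.

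Sema3b, a ligand of neuropilins that is known as a candidate tumor suppressor, was the ligand with the largest drop. It had 734, 562 and 656 reads in control libraries and 23, 12 and 29 reads in JAG1-overexpressing libraries, or 33.6 ± 3.10 and 1.24 ± 0.476 CPM (SD, n = 3 each). The log2 fold change was −4.74 (standard error 0.17), 26.7-fold lower. Sema3b, at chr9:107597674-107609241, was above the limit of detection in all JAG1-overexpressing libraries.

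Sema3a, the founding member of the class and a ligand of neuropilin-1, had 8.89, 11.4 and 10.9 CPM in control and 1.74, 1.995 and 1.21 CPM in JAG1-overexpressing libraries. It was 6.29-fold lower (log2 fold change −2.65, standard error 0.19). Sema3f, which prefers neuropilin-2, had 38.2, 36.3 and 38.1 CPM in control and 16.1, 17.4 and 13.1 CPM in JAG1-overexpressing libraries. It was 2.42-fold lower (log2 fold change −1.28, standard error 0.10) and had the highest level of the 3 ligands that were lower. Sema3a lies at chr5:13124822-13603485 and Sema3f at chr9:107681499-107710475.

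Sema3d had 1 read in control replicate 2 and none in any other library, and Sema3g had 0 reads in all 6 libraries, so that up to 3 reads, or between 0.148 and 0.206 CPM, could have been missed in a library. Neither passed the filter on low counts, and no difference was detectable for them at this depth.

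Summed over the 7 ligands, class 3 semaphorin reads came to 87.2 ± 2.60 CPM in the 3 control libraries (mean ± SD) and to 117 ± 0.501 CPM in the 3 JAG1-overexpressing ones. Sema3f made up 43.1% ± 0.465 (SD, n = 3) of the class 3 reads in control and 13.3% ± 1.86 (SD, n = 3) in JAG1-overexpressing libraries. Sema3b went from 38.5% ± 2.77 (SD, n = 3) to 1.07% ± 0.412 (SD, n = 3), and Sema3a from 11.9% ± 1.70 (SD, n = 3) to 1.41% ± 0.335 (SD, n = 3). In the opposite direction, Sema3e went from 0.0772% ± 0.0896 (SD, n = 3) to 68.4% ± 1.39 (SD, n = 3) and Sema3c from 6.42% ± 1.30 (SD, n = 3) to 15.8% ± 0.424 (SD, n = 3). The control share of Sema3e rests on 4 reads at or under the limit of detection and was 0.0281% without control replicate 3. The share of Sema3e lay between 67.2% and 69.9% in each JAG1-overexpressing library.

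**Figure D2:**
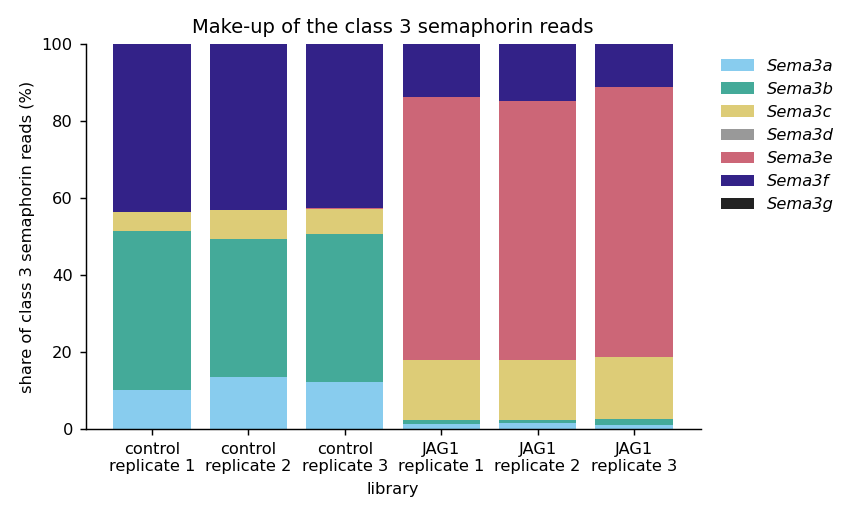
Share of each class 3 semaphorin in the class 3 semaphorin reads of a library, in percent, for 3 control and 3 JAG1-overexpressing libraries; each bar sums to 100%. Sema3f and Sema3b fill most of the control bars, and Sema3e fills between 67.2% and 69.9% of the JAG1-overexpressing bars.

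Nrp1, the receptor of Sema3a that also binds VEGF-A, had 151, 156 and 162 CPM in control libraries and 101, 105 and 90.7 CPM in JAG1-overexpressing libraries. The groups did not overlap, and Nrp1 was 1.58-fold lower (log2 fold change −0.66, standard error 0.06). Nrp2, the receptor of Sema3f that also binds VEGF-C, had 289, 288 and 283 CPM in control and 226, 211 and 204 CPM in JAG1-overexpressing libraries. It was 1.34-fold lower (log2 fold change −0.42, standard error 0.05), again without overlap. Nrp1 lies at chr8:128358591-128505476 and Nrp2 at chr1:62703317-62818692. Together the neuropilins reached 443 ± 2.15 CPM in the 3 control libraries (mean ± SD), against 312 ± 16.5 CPM with JAG1.

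Plxnd1, the receptor of Sema3e, had 21.7, 26.3 and 27.3 CPM in control and 24.7, 27.9 and 24.5 CPM in JAG1-overexpressing libraries. The ranges overlapped. The gene lies at chr6:115954811-115995339. The log2 fold change was 0.03 (standard error 0.10) with a 95% interval from −0.19 to 0.25, and its sign turned without control replicate 1 (−0.06) or without JAG1-overexpressing replicate 2 (−0.03). Set against Plxnd1 within each library, Nrp1 had 6.27 ± 0.601 times its level (SD, n = 3) in control and 3.85 ± 0.193 times (SD, n = 3) in JAG1-overexpressing cells. Sema3e reached 3.13 ± 0.263 times the level of Plxnd1 (SD, n = 3) in JAG1-overexpressing cells.

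The order of the levels differed accordingly. In control cells it ran Nrp2, Nrp1, Sema3f, Sema3b, Plxnd1, Sema3a and Sema3c, with the other 3 ligands at the limit of detection. Neighbours in this order did not overlap between their libraries, although the lowest Sema3f library, at 36.3 CPM, and the highest Sema3b library, at 36.2 CPM, nearly met. In JAG1-overexpressing cells the order was Nrp2, Nrp1, Sema3e, Plxnd1, Sema3c, Sema3f, Sema3a and Sema3b. Sema3a and Sema3b overlapped there and were not separable within their spread. Both neuropilins thus had more reads than any ligand in either group.

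Sema3a, Sema3c, Sema3d and Sema3e lie on the same chromosome, in a stretch of 5347.1 kb of chromosome 5, and Sema3b and Sema3f lie 83.8 kb apart, from start to start, on chromosome 9. This allowed each ligand to be set beside its neighbours. On chromosome 5, with the start of Sema3e as 0, Sema3a starts at −900.5 kb and was lower, whereas Sema3e and Sema3c, which starts at 3549.5 kb, were higher. Of the 5 protein-coding genes on each side of Sema3e in the RefSeq order, 8 had a row in the files. Among these, Sema3a alone had enough reads to be tested, and Pclo, which codes for the presynaptic protein piccolo and follows Sema3e, had at most 6 reads in a library. Between Sema3d and Sema3c, 15 of 22 protein-coding genes had a row, and the 3 that could be tested were Sema3a, Sema3e and Sema3c. Chromosome 5 as a whole was balanced, with 202 rises and 185 falls among its 737 tested genes and a median of 0.02 on the log2 scale.

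On chromosome 9, the stretch from Sema3b to Sema3f with 3 genes on each side was looked at after the values of both ligands were known. Ifrd2, which starts at −10.0 kb from Sema3b, was higher in JAG1-overexpressing cells, with a mean of 28.0 CPM in control and 79.8 CPM in JAG1-overexpressing cells (log2 fold change 1.51, standard error 0.10, adjusted p = 3.94e-07, edgeR). Gnai2, which codes for a G protein subunit and lies between the ligands, had 406 and 450 CPM (log2 fold change 0.15, standard error 0.05; adjusted p = 0.0182, edgeR). Its call was lost without control replicate 2, control replicate 3 or JAG1-overexpressing replicate 1 (edgeR, adjusted p from 0.0586 to 0.0744). Rbm5, on the far side of Sema3f, was lower (log2 fold change −0.30, adjusted p = 0.00745, edgeR), and Rbm6 and Mon1a did not pass the threshold.

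**Figure D3:**
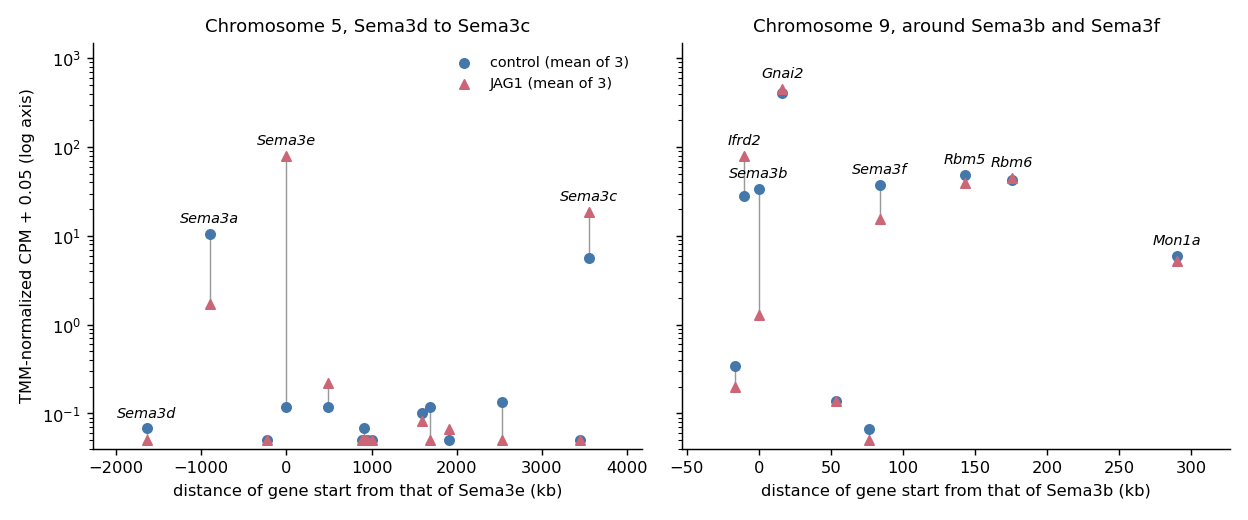
Mean TMM-normalized CPM plus 0.05 (log axis) of the protein-coding genes with a row in the files, against the distance of their start from that of Sema3e on chromosome 5 (left) or Sema3b on chromosome 9 (right), in kb; circles are control and triangles JAG1-overexpressing means of 3 libraries, joined by a line for each gene. On the left, genes other than Sema3a, Sema3c and Sema3e sit near 0, and on the right Ifrd2 and Sema3b move in opposite directions.

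The stretches of 250 bases before the transcription start are shown for the ligands of chromosome 5 with enough reads, since Sema3e and Sema3c were higher and Sema3a was lower. They were taken from RefSeq promoters of GRCm38.p6, 5′ to 3′ on the plus strand, which had entries for 8 of the 10 genes. The window of Sema3a lies before a start inside the annotated span of the gene. Sema3b and Sema3f were not among them. Capitals mark E-boxes, CANNTG, the motif that the factor TWIST1 binds.
Sema3e (chr5:14025026-14025275): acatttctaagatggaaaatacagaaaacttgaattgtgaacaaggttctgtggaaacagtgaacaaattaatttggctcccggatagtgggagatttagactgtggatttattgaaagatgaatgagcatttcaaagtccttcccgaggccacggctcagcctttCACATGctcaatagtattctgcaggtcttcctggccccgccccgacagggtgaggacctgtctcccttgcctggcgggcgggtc
Sema3c (chr5:17574566-17574815): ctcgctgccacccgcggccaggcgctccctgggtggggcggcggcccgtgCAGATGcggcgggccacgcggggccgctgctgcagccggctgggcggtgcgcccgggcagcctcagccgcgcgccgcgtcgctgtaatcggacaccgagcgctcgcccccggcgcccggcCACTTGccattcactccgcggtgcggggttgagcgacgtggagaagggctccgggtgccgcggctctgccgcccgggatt
Sema3a (chr5:13396534-13396783): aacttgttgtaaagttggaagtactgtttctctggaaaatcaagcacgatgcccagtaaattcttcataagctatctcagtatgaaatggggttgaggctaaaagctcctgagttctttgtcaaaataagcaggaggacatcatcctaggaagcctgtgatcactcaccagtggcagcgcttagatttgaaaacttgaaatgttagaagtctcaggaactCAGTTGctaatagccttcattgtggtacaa

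Motifs of 3 kinds tied to the study's factors were searched on both strands. Sema3e and Sema3a each had 1 E-box and Sema3c had 2, and an E-box was found in 66.2% of the 32851 promoters in the table at this length. TGGGAA, the core bound by the NOTCH effector RBPJ, occurred in none of these 3 windows and in 21.6% of all promoters, and CAGAC, the SMAD element, in none of the 3 and in 42.2% of all. None of the searched motifs overlapped another in these windows. The window of Sema3c had a GC content of 78.4%, that of Sema3e 48.0% and that of Sema3a 40.8%. These are matches of letters and were not tested as binding sites.

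The rest of the pathway was followed through a list of 52 genes, written from general knowledge but with earlier results of these data known. Each had a row, and 38 passed the filter on low counts. Among the 38, 10 were higher, 15 lower and 13 not past the threshold, beside 55.1% of all tested genes past it. The median log2 fold change of the list was 0.03, and that of all tested genes was 0.0039. The genes were taken in the order of the pathway, from co-receptors to the cytoskeleton.

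The plexins of the A class, which carry the signal of neuropilin-bound semaphorins into the cell, were lower in JAG1-overexpressing cells for 3 of 3 tested genes, beside 27.7% of all tested genes. Plxna1 had 33.2, 36.7 and 34.9 CPM in control and 23.4, 24.4 and 21.1 CPM in JAG1-overexpressing libraries, 1.52-fold lower (adjusted p = 8.02e-05, edgeR). Plxna2, at a mean of 45.1 and 31.1 CPM, was 1.45-fold lower (adjusted p = 0.000229, edgeR). Plxna3 had the largest drop of them, 2.13-fold (log2 fold change −1.09, standard error 0.12, adjusted p = 1.78e-05, edgeR), and the groups did not overlap for any of the 3 genes, beside 30.9% of all tested genes with JAG1-overexpressing libraries below. Plxna4 had 0 reads in every library. Summed, plexin-A reads went from 89.2 ± 3.11 to 58.3 ± 4.40 CPM (SD, n = 3 each). Of the adhesion molecules that join neuropilin complexes in neurons, L1cam and Chl1 had 0 reads in every library, Cntn2 at most 7 and Nrcam at most 14.

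Neuropilins also serve growth factors of the VEGF family, and 5 of 8 such genes could be tested. Of these, 2 were higher, 2 lower and 1 not past the threshold, beside 55.1% of all tested genes past it. Vegfc, a growth factor of lymphatic vessels that binds neuropilin-2, had 256, 283 and 283 reads in control and 2, 0 and 3 reads in JAG1-overexpressing libraries, at least 79.2-fold lower. It passed the filter on low counts through the control libraries alone, so that its place among the genes that were lower is a description. Vegfd, its close relative, listed in the files under the older symbol FIGF, was 1.39-fold lower (adjusted p = 0.00563, edgeR). Vegfb rose 2.17-fold, from 38.3 ± 2.69 to 83.2 ± 1.54 CPM (SD, n = 3 each) (adjusted p = 1.28e-07, edgeR). Vegfa, at 43.4 and 48.8 CPM, did not pass the threshold (log2 fold change 0.17, 95% interval −0.0066 to 0.35). Of the receptors, Flt1 had 18, 30 and 27 reads in control and 89, 64 and 78 reads in JAG1-overexpressing libraries, 3.48-fold higher (adjusted p = 3.70e-05, edgeR). Kdr, the main signaling receptor of VEGF-A, had 1 read in all 6 libraries together, Flt4 had at most 8 reads and Pgf, a further ligand, at most 18.

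Class 3 semaphorins are cut by proprotein convertases, which changes their activity. Furin, the main enzyme of this kind, had 250, 223 and 198 CPM in control and 248, 269 and 258 CPM in JAG1-overexpressing libraries. The groups overlapped, the rise was 1.15-fold (adjusted p = 0.0378, edgeR) and the call was lost without any single library other than control replicate 1 (log2 fold change 0.12 to 0.24). Pcsk7, at 5.26 and 5.46 CPM, did not pass the threshold, and Pcsk5 and Pcsk6 had at most 3 reads in a library.

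Among 15 GTPases, their regulators and adaptors that act next to plexins, 6 were higher, 2 lower and 7 not past the threshold. Of all tested genes, 55.1% were past it, 27.4% as higher and 27.7% as lower. Rhod, a GTPase that binds plexin cytoplasmic domains, rose 4.03-fold, from 8.04 ± 0.410 to 32.4 ± 0.641 CPM (SD, n = 3 each) (adjusted p = 7.06e-09, edgeR). Rnd1, a plexin-binding GTPase that promotes plexin activity, rose 1.92-fold (adjusted p = 4.45e-06, edgeR), and Arf6, which controls the recycling of membrane and integrins, rose 1.52-fold (adjusted p = 1.77e-06, edgeR). Rhoj, a GTPase known to act with plexin-D1 in endothelial cells, fell 2.57-fold, from 16.4 ± 2.19 to 6.37 ± 0.702 CPM (SD, n = 3 each) (adjusted p = 5.38e-06, edgeR). Farp1, an exchange factor tied to plexin-A signaling, fell 1.37-fold (adjusted p = 0.000135, edgeR).

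Downstream, the CRMP and MICAL proteins, which link plexins to microtubules and actin, had 3 lower and 0 higher genes among 5 tested. Of all tested genes, 27.7% were lower, 27.4% higher and 55.1% past the threshold either way. Dpysl3, a CRMP, fell 2.55-fold from 367 ± 16.5 to 144 ± 7.68 CPM (SD, n = 3 each) (adjusted p = 7.67e-09, edgeR). Mical1, which oxidizes actin, fell 1.98-fold (adjusted p = 0.000279, edgeR). Mical2 had at most 26 reads in a library and was 2.13-fold lower (adjusted p = 0.0270, edgeR). It reached the filter on low counts in every library of the control group only, so that its place among the lower is a description. Its call, 1 of the 3, was lost with DESeq2 (adjusted p = 0.0869) and without control replicate 1, control replicate 2, JAG1-overexpressing replicate 1 or JAG1-overexpressing replicate 3 (edgeR, adjusted p from 0.0578 to 0.1004).

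Of the kinases and cofilin, 5 of 8 tested genes were lower and 1 higher, beside 27.7% lower and 27.4% higher of all tested genes. Fyn, a kinase that acts with plexin-A in the response to Sema3a, fell 2.63-fold (adjusted p = 1.29e-05, edgeR), and Cdk5r1, the activator of Cdk5, fell 2.39-fold (adjusted p = 9.01e-06, edgeR). Limk2, which phosphorylates cofilin, fell 1.54-fold (adjusted p = 1.65e-05, edgeR). Cfl1, which codes for cofilin, rose 1.29-fold from 462 to 598 CPM (adjusted p = 0.000123, edgeR). Vegfb, Rhod and Cfl1 lie on chromosome 19, on which 313 of the 422 genes tested rose, 31 fell and the median was 0.61 on the log2 scale. The part of this shift in their values was not tested. Rnd1, which rose, lies on chromosome 15, where the median was −0.53. None of the 10 semaphorin and receptor genes lies on these chromosomes, and the medians of theirs lay between −0.01 and 0.02 (chromosomes 1, 5, 6, 8, 9 and 14).

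**Figure D4:**
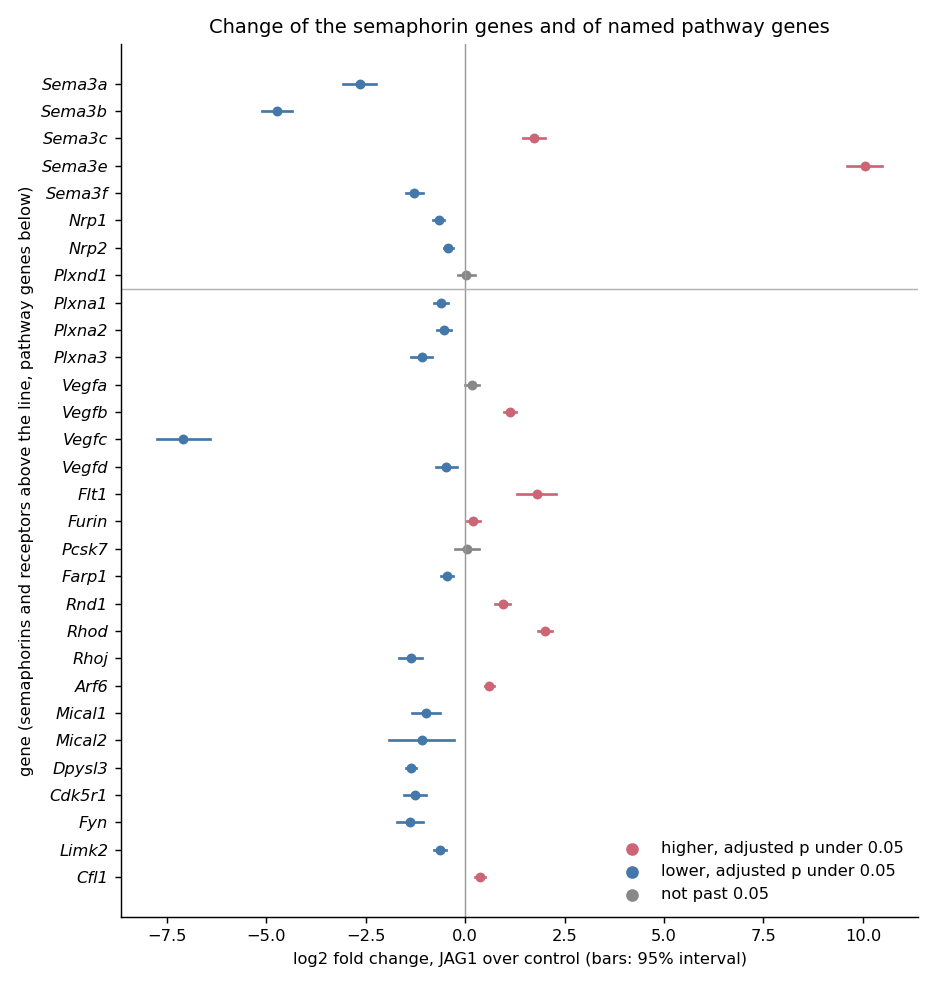
Log2 fold change, JAG1-overexpressing over control, with its 95% interval from edgeR's fit for the 8 tested semaphorin and receptor genes (above the line, given as a description) and the tested pathway genes named in the text (below); red is higher and blue lower at an adjusted p under 0.05, grey not past it. Neuropilins and plexin-A genes lie left of 0 and Plxnd1 lies at 0; the values of Sema3e and Vegfc depend on the fit's handling of counts near 0.

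Genes whose levels over the 6 libraries were closest to those of Sema3e, by the Euclidean distance of log2 CPM, were Mfhas1 (distance 2.38), Ica1 (2.47) and Nid1 (2.62). Mfhas1 had a mean of 0.209 CPM in control and 42.1 CPM in JAG1-overexpressing cells, and Nid1 0.101 and 30.6 CPM. Ica1, without a read in the control libraries, had 35.6 CPM in JAG1-overexpressing cells. Each of these genes lies on another chromosome than Sema3e. They passed the filter on low counts through the JAG1-overexpressing libraries alone and were picked for their likeness to Sema3e. Their difference between the groups is thus a description.

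In bulk RNA, fewer cells of a type and less RNA per cell cannot be told apart, so markers of other cell types were followed in the same libraries. Of 8 markers of endothelium, the cells in which Sema3e and Plxnd1 are best known, 2 had more than 3 reads in a library, and their sum was between 1.38 and 2.20 CPM in control and between 1.30 and 1.40 CPM in JAG1-overexpressing libraries. Cdh5, Tek, Cldn5, Emcn, Tie1 and Vwf were at most 3 reads, and Esam, the most abundant, had 1.54 and 1.27 CPM. Microglial markers summed to 3.41, 4.13 and 3.30 CPM in control and 1.64, 2.55 and 1.94 CPM in JAG1-overexpressing libraries, without overlap. Tmem119, the most abundant over all libraries, was lower, at 2.24 and 0.103 CPM, and Cx3cr1 was higher. Tmem119 passed the filter on low counts through the control libraries alone. Cx3cr1 reached it in every library of the JAG1-overexpressing group only, so that both directions are a description. Aif1, Itgam, P2ry12 and C1qa were at or under 3 reads. Oligodendrocyte lineage markers summed to 4.15, 4.56 and 3.45 CPM in control and 4.59, 4.13 and 4.80 CPM in JAG1-overexpressing libraries, which overlapped, led by Pdgfra, with Sox10, Olig1, Olig2, Cspg4, Mbp and Mog at or under 3 reads. The part of these cell types in the semaphorin values was not tested.

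The larger marker sums also moved with the groups. The sum of the 10 astrocyte markers was 337, 358 and 398 CPM in control and 134, 123 and 137 CPM in JAG1-overexpressing libraries. All 6 tested markers were lower, beside 27.7% of all tested genes. S100b and Aldoc reached the filter on low counts in every library of the control group only, so that their place among the lower is a description. The sum of 8 fibroblast and mural cell markers was 818, 828 and 854 CPM in control and 352, 361 and 312 CPM in JAG1-overexpressing libraries. Of 6 tested markers, 5 were lower, beside 27.7% of all tested genes, and Col1a2 was higher. Dcn passed the filter on low counts through the control libraries alone, and its place among the lower is a description. Col1a1 was the most abundant over all libraries and Acta2 in control, at 310 CPM against 39.5 CPM, and Lum and Rgs5 had 0 reads. The sum of 9 neuronal markers was 100.3, 108 and 110 CPM in control and 59.9, 58.6 and 61.7 CPM in JAG1-overexpressing libraries. Of 3 tested markers, 2 were lower, beside 27.7% of all tested genes, and Map2 was higher, at 25.1 and 51.3 CPM. Stmn2, 1 of the 2, passed the filter on low counts through the control libraries alone, and its fall is a description. Tubb3 was the most abundant over all libraries, at 78.2 and 8.40 CPM, with Rbfox3, Snap25, Syt1, Nefl, Gad1 and Slc17a7 at most at 3 reads. The part of these shifts in the semaphorin and receptor values was not tested.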

How the data were processed

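RNA of 3 control and 3 JAG1-overexpressing Ink4a-/- astrocyte libraries (QuantSeq 3' mRNA kit) was analysed. The authors deposited, per library and gene, the raw read count and a normalized value in log2; the submitters' processing notes name Bowtie2, bedtools, edgeR and GRCm38 (mm10), without roles or versions, and the annotation and any use of strand are not given in the sources used here. Raw counts were used, and the authors' log2 values only as an alternative. Symbols were matched to RefSeq GRCm38.p6 (22059 by symbol, 1072 by synonym, 151 by neither). Lsmem2 overlaps Sema3b, and non-coding genes overlap Sema3a, Nrp1 and Nrp2, so their reads may be shared.

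In R 4.3.3, filterByExpr (minimum count 10) left 11712 genes, which were compared across all genes with edgeR 4.0.16 (TMM, quasi-likelihood test, Benjamini-Hochberg adjustment, threshold 0.05). No pair of libraries was a copy (chi-square per degree of freedom at least 3.80). Standard errors were derived from the F statistic. The test was also run on simulated counts, in which few genes changed and all shared the same spread. That setting differs from these data, where 55.1% of tested genes passed, so it does not show how the test behaves here. Alternatives were DESeq2 1.42.0, other normalizations and filters, limma-voom (limma 3.58.1), a replicate block, the authors' log2 values, a 2-fold limit and leaving out each library. Members and lists were chosen with earlier results of these data known. Named were all members, Jag1, the co-receptor, VEGF and convertase lists, up to 3 rises and 3 falls of each other pathway list, 5 neighbours on each side of Sema3e, the 3 genes most alike, and leading or absent markers. Genes of chromosome 9 were added after their values were seen.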

Additional observations from a re-analysis of the deposited data

How the results depend on the processing

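Of 36 tested genes (Jag1, the semaphorin, receptor and named pathway genes, and the 5 genes around Sema3b and Sema3f, the last run after seeing the data), 31 kept their direction and their side of the threshold under all 14 alternatives run for each. Since most of them were chosen by this comparison or as the largest changes of their lists, this is a description and no support for them. Of the 8 tested semaphorin and receptor genes, which the comparison had chosen, 7 passed in each refit and 5 with a 2-fold limit. Without the filter on low counts, 9 were tested. Of all tested genes, 55.1% passed in the main fit and 13.9% with the 2-fold limit. With that limit the count of pathway genes was 10 in place of 25, and that of all tested genes 1633 in place of 6458. With libraries left out in turn, the pathway count ran from 22 to 25 and that of all genes from 5516 to 6600. Plxnd1, at 0.03, ran from −0.064 to 0.091 with libraries left out, turning negative without control replicate 1 (−0.064) and, for the JAG1-overexpressing libraries, without replicate 2 (−0.03). Furin lost its call with upper-quartile normalization (0.18) and without any single library other than control replicate 1 (0.12 to 0.24). Mical2 lost it with DESeq2 (−1.10) and without control replicate 1, control replicate 2, JAG1-overexpressing replicate 1 or JAG1-overexpressing replicate 3 (−1.20 to −0.85). Gnai2 lost it with upper-quartile normalization (0.12) and without control replicate 2, control replicate 3 or JAG1-overexpressing replicate 1 (0.12 to 0.14). Vegfa passed the threshold without control replicate 1 (0.25). The cause was not tested. Sema3e ran from 9.53 to 11.25 on the log2 scale, the highest without control replicate 3, which held 3 of its 4 control reads. Replicate numbers are shared by the groups, but nothing states what they stand for, and deviations of same-numbered libraries correlated at 0.148, 0.061 and 0.119 across genes, each the highest for its number. With the replicate block, 6711 genes passed in all, 7 semaphorin and receptor genes and 25 pathway genes. No scaling moved the median of all genes by more than 0.03. Depth limits Sema3d and Sema3g, where up to 3 reads per library could be missed.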
